A study of Mus musculus with 10 samples.

Results

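The erythroid surface and blood group genes examined here were 8 genes of the 21911 protein-coding genes annotated in GENCODE mouse release M21: Rhag, Rhd, Gypc, Kel, Ermap, Icam4, Aqp1 and Cd44. For each gene, every ATAC-seq summit from 50 kb upstream to 50 kb downstream of its annotated span was collected. This gave 250 of the 146939 summits on the numbered chromosomes, X and Y, which fell into 50 of the 28981 regions made by joining the 501-bp windows around the summits of all libraries.

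ATAC-seq marks open chromatin by the insertions of the Tn5 transposase, and was performed in G1E-ER4 (G1ER) cells to follow chromatin accessibility as the cells begin erythroid differentiation. These cells derive from G1E, a mouse erythroid line without Gata1, and carry in its place a transgene for GATA1-ER, a GATA1 protein joined to the hormone-binding part of the estrogen receptor, which β-estradiol turns on. All groups shared the Gata1-null background, the GATA1-ER transgene and a medium with SCF and erythropoietin. Undifferentiated cells (0 h, without β-estradiol) were compared with cells held in 1e-07 M β-estradiol for 2, 6, 12 and 24 h, with 2 libraries in each of the 5 groups and about 50000 cells per library. All 10 libraries thus came from 1 subclone with a transgenic, estradiol-activated GATA1. The study describes the replicates as independent experiments in this line, so no p-value covers the spread between clones. Unless a replicate block is named, the p-values below permute hours over the libraries and do not use the replicate number.

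Blood group antigens are carried by proteins and glycoproteins of the red cell membrane, and many of these proteins also have a transport, adhesion or structural role. During erythroid maturation, GATA1 binds WGATAA sites, often beside an E-box site bound by TAL1, at the promoters and enhancers of genes for hemoglobin and the red cell membrane. Promoters and enhancers in use are usually nucleosome-poor, which ATAC-seq reads as a peak, while absence of a peak does not show that a gene is silent.

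The 10 lists held between 10698 peaks (24 h replicate 2) and 19859 peaks (6 h replicate 2), and no read totals accompany them, so sequencing depth is unknown, and an unlisted region is one that the caller did not report. The median peak score, the −log10 of the q-value, was 5.678 to 6.475 in the replicate 1 lists and 6.725 to 7.682 in the replicate 2 lists, which did not overlap. Scores were therefore replaced by the percentile rank of each peak in its own list, on which 100 is the highest score of a list and 0 stands for a region that was not listed. This rank still depends on list length, since the same place from the top gives a lower percentile in a shorter list. Of 12 erythroid marker genes, 8 had a promoter peak in at least 1 library, with Epor and Zfpm1 in all 10 and Hbb-bt, Hba-a1, Alas2 and Slc4a1 in none. No promoter of 6 B cell, 6 macrophage and neutrophil, 6 hepatocyte or 6 neural markers was listed in any library. Of the T cell, mast cell and megakaryocyte markers (6 each), only Lck in 4 libraries, Kit in 9, Hdc in 1 and Gp1ba in 10 were listed.

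Most member promoters had a peak at some time, but none of them had one in every library. A promoter was counted as listed where a region lay within 1 kb of an annotated transcript start of the gene. Of the 8 members, 0 were listed in all 10 libraries, whereas 26.3% of all protein-coding genes were, and 7 of the 8 were listed in at least 1 library, against 44.0% of all genes. Counted by library, 3 member promoters were listed in each of the 0 h and 2 h libraries, 4 and 6 in the 6 h libraries, 4 and 5 in the 12 h libraries, and 5 and 4 in the 24 h libraries. The library with 6 was 6 h replicate 2, which also had the longest list, and the share of all genes with a listed promoter ranged from 34.8% to 41.8% over the libraries. The part of list length in the member counts was not tested.

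The sequences at the promoters are shown because 5 of the 8 members carry a GATA motif close to the start. This motif count was added after the data were seen, and the members were chosen with earlier results of these data known. Sequence was read from the RefSeq assembly GRCm38.p6, the build mm10 on which the peaks were called, from 150 bases before the most upstream transcript start to 24 bases after it, 5′ to 3′ on the strand of the gene, with each GATA motif in capitals (AGATAA or TGATAA, or the same letters on the other strand, TTATCT or TTATCA).
Rhag promoter (chr17:40810976-40811150, plus strand): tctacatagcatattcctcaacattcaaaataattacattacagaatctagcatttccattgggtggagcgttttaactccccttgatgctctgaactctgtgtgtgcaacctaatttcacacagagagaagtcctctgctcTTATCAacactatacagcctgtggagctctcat
Rhd promoter (chr4:134864386-134864560, plus strand): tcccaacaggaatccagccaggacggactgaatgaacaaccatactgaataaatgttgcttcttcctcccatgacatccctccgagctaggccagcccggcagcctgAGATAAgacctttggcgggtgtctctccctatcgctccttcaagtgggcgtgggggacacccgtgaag
Kel promoter (chr6:41704315-41704489, minus strand): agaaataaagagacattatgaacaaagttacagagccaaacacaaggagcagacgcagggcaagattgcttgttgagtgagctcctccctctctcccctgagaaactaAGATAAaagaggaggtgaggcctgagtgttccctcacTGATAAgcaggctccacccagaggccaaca
Ermap promoter (chr4:119189987-119190161, minus strand): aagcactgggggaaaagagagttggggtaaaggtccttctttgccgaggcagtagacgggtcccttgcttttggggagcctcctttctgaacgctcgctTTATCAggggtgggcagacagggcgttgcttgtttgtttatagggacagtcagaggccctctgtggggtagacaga
Icam4 promoter (chr9:21029223-21029397, plus strand): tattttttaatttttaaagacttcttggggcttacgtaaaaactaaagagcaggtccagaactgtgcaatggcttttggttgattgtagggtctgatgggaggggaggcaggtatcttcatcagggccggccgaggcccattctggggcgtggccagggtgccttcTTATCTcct

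Over the 200 bases from 150 before to 49 after the start, the GATA motif was found in Rhag, Rhd, Kel, Ermap and Icam4 and not in Gypc, Aqp1 or Cd44, which is 5 of 8 members against 9.95% of the 21911 promoters of the same length and 5.29% of the 9649 promoters that were listed in any library. The motif began 8 bases upstream of the start in Rhag, 43 in Rhd, 51 in Ermap, and at 42 and 5 in Kel, and in Icam4 it began 16 bases downstream. The TAL1-GATA composite, CTG followed after 7 or 8 bases by the GATA motif and so always overlapping it, was found in Rhag, Kel, Ermap and Icam4, 4 of 8 members against 0.42% of all promoters. Among 30 other erythroid surface genes (such as Slc4a1, Bsg, Cd47, Epor and Tfrc), 5 carried the GATA motif and 1 the composite. The GC-rich KLF motif CCNCNCCC was found in Rhd, Gypc, Icam4, Aqp1 and Cd44, 5 of 8 members against 49.6% of all promoters. The full E-box CANNTG was found in Rhd, Gypc and Kel, 3 of 8 members against 53.9% of all promoters. The ETS motif CCGGAA was found in 0 members against 15.2%, and the RUNX motif TGTGGT in 1, Aqp1, against 10.1%. These matches describe letters in a fixed window and not bound sites.

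**Figure D1:**
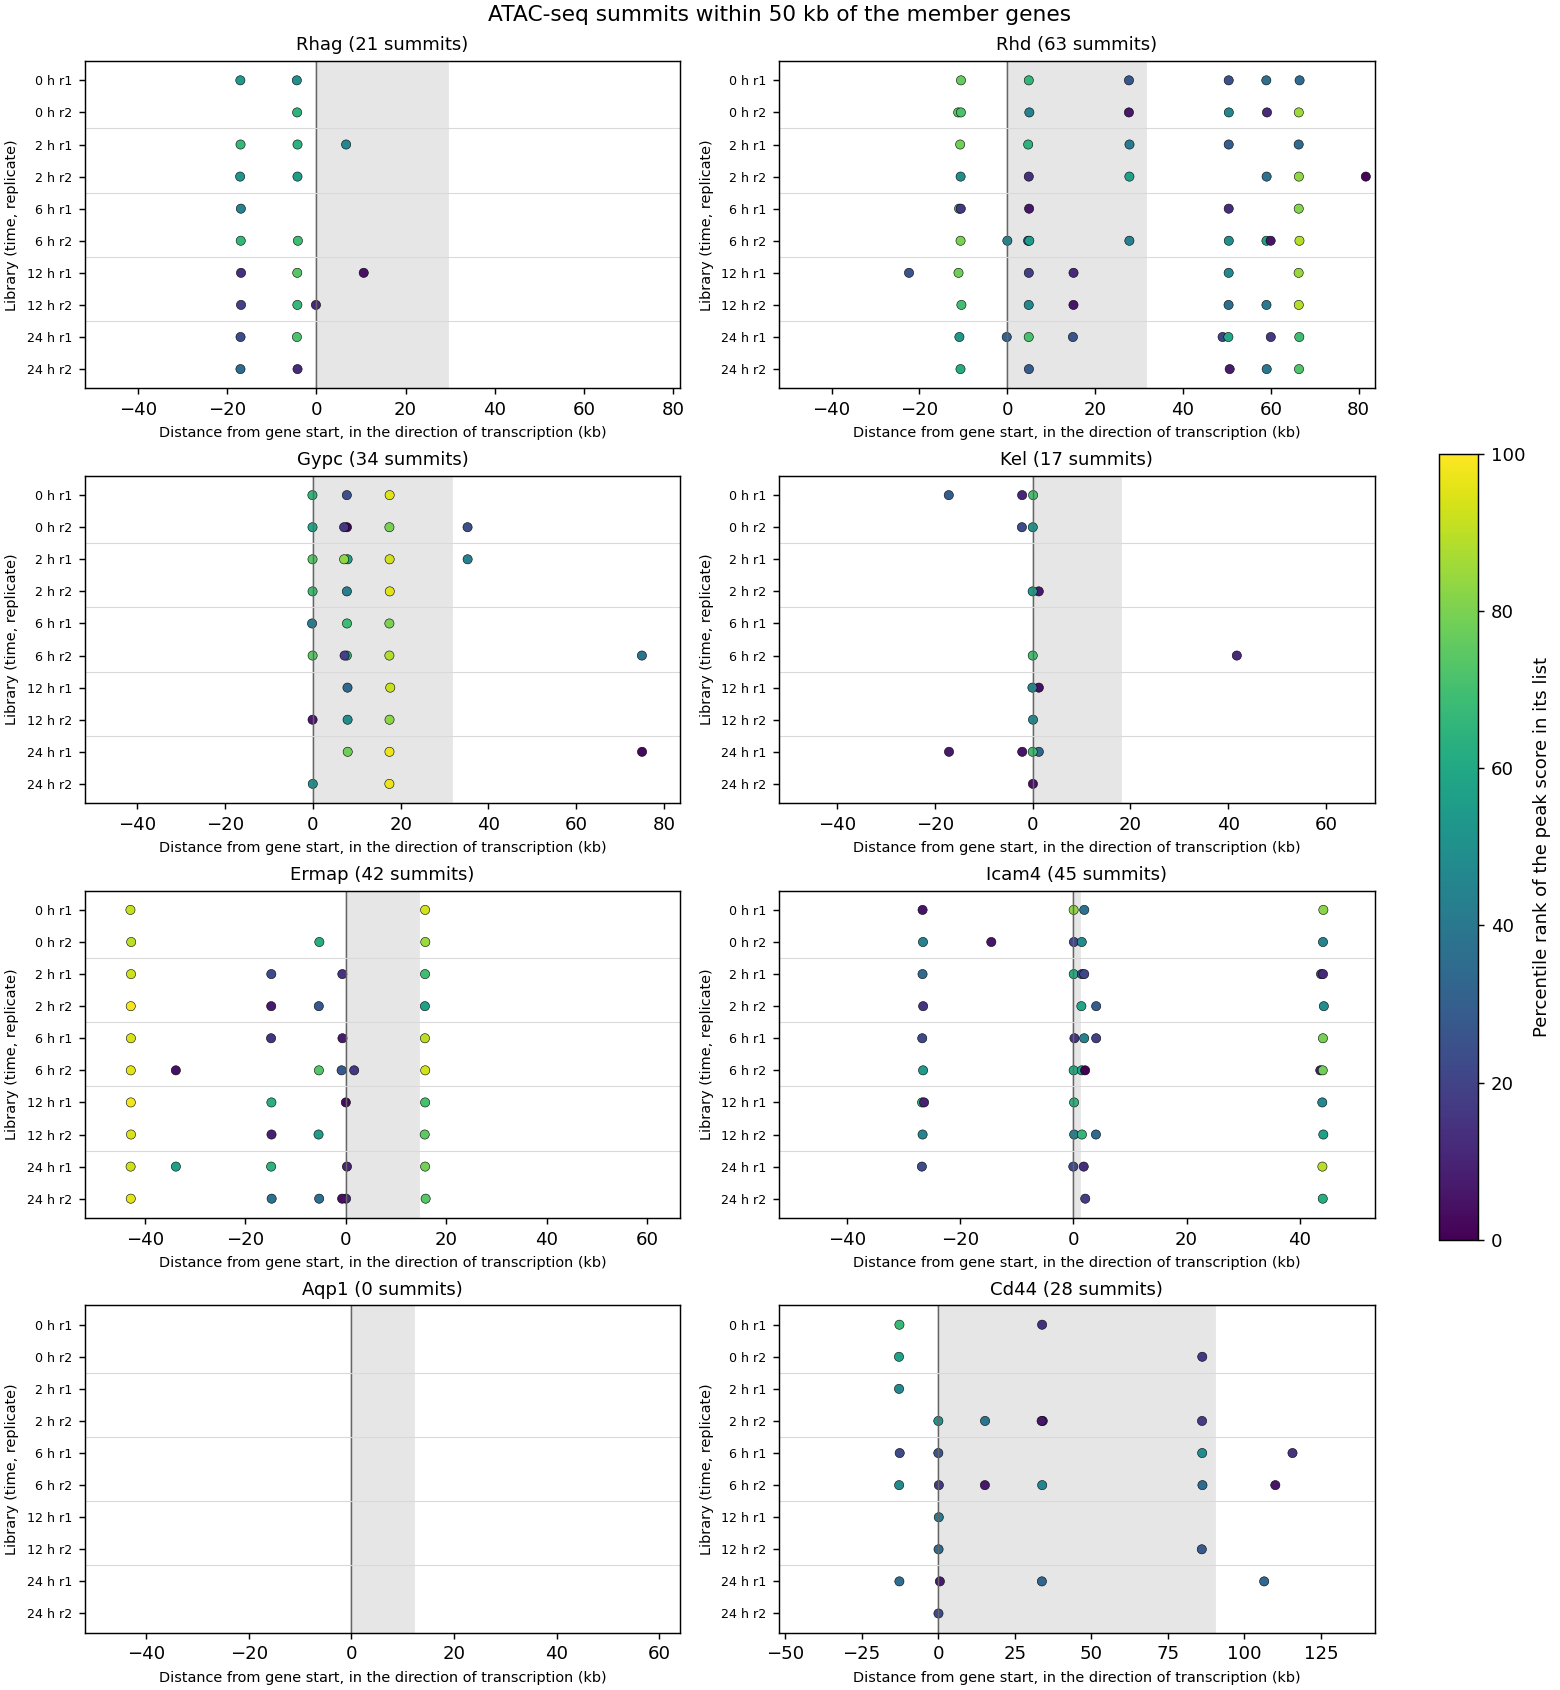
Summits within 50 kb of each of the 8 genes, by distance from the gene start in the direction of transcription (kb, x axis) and by library (time and replicate, y axis), coloured by percentile rank, with the gene body in grey. Gypc had a column of high-ranking summits inside the gene in all 10 libraries, the Cd44 start was listed from 2 h replicate 2 onward but not at 0 h, and the Aqp1 panel is empty.

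The 50 regions comprised 8 at the members' own promoters, 12 at promoters of neighbouring genes and 30 distal regions, lying over 1 kb from any protein-coding start. Those at neighbouring promoters were the steadiest, with 5 of 12 in all 10 libraries, as against 0 of 8 own promoters and 2 of 30 distal regions. Altogether 7 of the 50 regions (14.0%, beside 21.5% of all regions) were listed by every library and 11 (22.0%, beside 28.9%) by just 1. The GATA motif was found in the central 200 bases of 13 of the 30 distal member regions (43.3%), beside 38.8% of all 19293 distal regions, and the composite in 4 of them (13.3%), beside 7.49%.

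To ask what changed after GATA1 was turned on, gain was defined as presence in both libraries of a later time and absence from both of 0 h, and loss as the reverse. With 2 libraries against 2 an exact permutation test cannot go below 0.333, so these calls carry no p-value and are set beside the share of all regions that met the same rule. Of the 50 member regions, 2 were gained by 2 h (4.0%, against 2.67% of all regions), 2 by 6 h (4.0% against 4.08%), 3 by 12 h (6.0% against 2.47%) and 3 by 24 h (6.0% against 1.71%). For losses the counts were 1 by 2 h (2.0% against 1.15%), 1 by 6 h (2.0% against 0.759%), 3 by 12 h (6.0% against 1.88%) and 1 by 24 h (2.0% against 3.51%). A single call moves the members' share by 2.0 percentage points. The shares at 2 and 6 h, and the share lost by 24 h, thus lay within a single call of the background. The higher ones, gained by 12 and 24 h and lost by 12 h, rest on 3 regions each. The Cd44 promoter and a distal Ermap region were in the gains of both times. Of the 2 regions gained by 2 h, the one 81.7 kb downstream of Rhd had only its 2 h replicate 2 summit inside the 50-kb window.

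The calls fell on 9 regions, at Rhd, Kel, Ermap and Cd44, and none fell on Rhag, Gypc or Icam4. When each list was reduced to its 10698 highest peaks, the length of the shortest list, 3 of the 16 calls remained: the Cd44 promoter gained at 12 h, the distal Cd44 region lost at 12 h, and a distal Ermap region gained at 24 h. All 16 remained with a score of at least 2, a q-value of 0.01. By promoter, Ermap and Cd44 were gained at 6 h, Cd44 at 12 h, and Ermap and Cd44 at 24 h, and no member promoter was lost. For 2, 6, 12 and 24 h in this order, 0.648%, 1.02%, 0.735% and 0.461% of all 21911 promoters were gained and 0.338%, 0.0228%, 0.292% and 0.516% were lost.

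**Figure D2:**
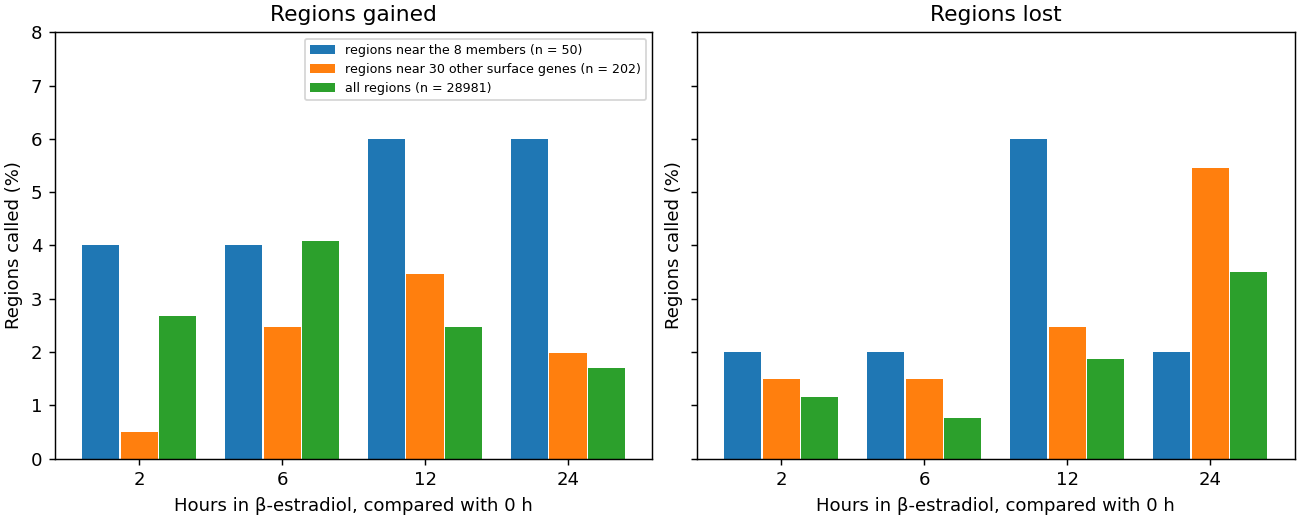
Share of regions gained (left) or lost (right) against 0 h, in percent (y axis), at each later time point (x axis), for the 50 regions near the 8 members, the 202 regions near 30 other erythroid surface genes, and all 28981 regions. Member bars stand for 1 to 3 regions each, from 2.0% to 6.0%.

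To use all 5 time points together, the percentile rank of each region listed in at least 5 libraries was compared with hours by Spearman's rho, with an exact permutation test over the arrangements of the hours (two-sided) and Benjamini-Hochberg adjustment over the 13291 regions tested, 23 of them near the members. No region passed in either direction (0.0% higher later and 0.0% lower later), near the members or elsewhere. The smallest p that the test could give was 1.76e-05 (exact permutation). After adjustment over 13291 regions, this is too large for any region to pass alone, so the lack of calls does not show a lack of trends. Before adjustment, 818 of the 13291 regions were below 0.05, 240 higher and 578 lower at later times, and 2 of the 23 member regions were, a distal Ermap region (higher) and a distal Rhd region (lower). With the replicate number as a block, the counts were again 0 after adjustment and, before it, 965 over all regions and 2 near the members, now the distal Ermap region and, in place of the Rhd region, the Gypc promoter (lower).

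Cd44 is the hyaluronan receptor, an adhesion molecule of many cell types that carries the Indian blood group antigens and is known to decline as erythroblasts mature. Its promoter (chr2:102900841-102901855, first exon and upstream) was not listed in either 0 h library or in 2 h replicate 1. It was then listed in every later library, at percentile 51.8 in 2 h replicate 2, with 26.7 and 15.9 in the 6 h libraries, 40.9 and 34.7 in those of 12 h, and 6.67 and 22.5 in those of 24 h. The 6 h, 12 h and 24 h libraries lay above the 0 h libraries, as the definition of gain requires, and in the lower and middle part of their lists. The summits lay from 60 to 574 bases downstream of the start, the last in 24 h replicate 1, and with windows of 100 bp on each side the 24 h gain was not called. Over the whole course, rho was 0.424 (exact permutation p = 0.233, adjusted p = 0.991), with a range of 0.226 (without either 0 h library) to 0.629 (without 2 h replicate 2) when 1 library was left out.

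The intergenic region 12.7 kb upstream of Cd44 went the other way. It was at percentiles 67.4 and 57.8 at 0 h, at 47.2 in 2 h replicate 1 and not listed in 2 h replicate 2. The 6 h libraries had it at 22.6 and 47.6, neither 12 h library had it, and at 24 h it was at 35.7 in replicate 1 and not listed in replicate 2. Both 0 h libraries thus lay above all 8 later ones, and rho was −0.648 (exact permutation p = 0.0506, adjusted p = 0.781). Pearson's r was −0.492 (exact permutation p = 0.157), and −0.723 (exact permutation p = 0.0548) without the 24 h libraries. This region holds a TAL1-GATA composite, with the GATA motif in capitals.
Cd44, 12.7 kb upstream (chr2:102914254-102914453, plus strand): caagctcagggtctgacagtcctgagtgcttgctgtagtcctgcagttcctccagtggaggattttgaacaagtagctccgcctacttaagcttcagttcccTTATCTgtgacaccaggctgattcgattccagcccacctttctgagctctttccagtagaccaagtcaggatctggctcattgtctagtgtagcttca

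Inside Cd44, an intronic region 86.2 kb downstream of the start was listed in 5 libraries, at 15.9 in 0 h replicate 2, 17.3 in 2 h replicate 2, 47.7 and 34.7 at 6 h and 27.7 in 12 h replicate 2. It was not listed in either 24 h library. Both 6 h libraries lay above all other libraries, while the other groups overlapped. The other 5 distal regions within 50 kb of Cd44 were each listed in 1 to 4 libraries.

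Ermap, the erythroblast membrane-associated protein of the Scianna blood group, is a member of the butyrophilin-like family that is largely restricted to erythroid cells. Its promoter was listed in neither 0 h library and in 6 of the 8 later ones, through 2 neighbouring regions. The upstream region, at 0.722 kb, was at 14.4 in 2 h replicate 1, at 7.12 and 27.1 in the 6 h libraries and at 3.99 in 24 h replicate 2. The region at the start itself was at 2.82 in 12 h replicate 1 and at 9.42 and 11.2 in the 24 h libraries. These were peaks of low rank, and neither the 6 h nor the 24 h gain was called in lists of equal length.

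A distal region 14.8 kb upstream of Ermap, which overlaps an exon of the neighbouring gene AU022252, had the highest rho of the 23 member regions tested. It was not listed at 0 h, ranked 22.5 and 6.97 after 2 h, and was at 15.4 in 6 h replicate 1 but not in 6 h replicate 2, the longest list. After 12 h it ranked 63.4 and 9.19 and after 24 h 64.4 and 37.4. All libraries of 2, 12 and 24 h lay above both 0 h libraries, as the definition of gain requires. Spearman's rho was 0.773 (exact permutation p = 0.0142, adjusted p = 0.583), and Pearson's r was 0.75 (exact permutation p = 0.0164), falling to 0.596 (exact permutation p = 0.0893) without the 24 h libraries. The rank was higher in replicate 1 at each of the 4 later time points. With the replicate number as a block, rho was 0.79 (exact permutation p = 0.0131, adjusted p = 0.515). No GATA motif lies in its central 200 bases, while 1 lies in the region just upstream of the Ermap start.
Ermap, 14.8 kb upstream (chr4:119204745-119204944, plus strand): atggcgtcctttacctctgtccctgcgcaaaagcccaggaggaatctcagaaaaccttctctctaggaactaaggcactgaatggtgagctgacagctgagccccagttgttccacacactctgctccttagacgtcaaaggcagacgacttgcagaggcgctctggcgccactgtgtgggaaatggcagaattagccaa
Ermap, 0.722 kb upstream (chr4:119190633-119190832, plus strand): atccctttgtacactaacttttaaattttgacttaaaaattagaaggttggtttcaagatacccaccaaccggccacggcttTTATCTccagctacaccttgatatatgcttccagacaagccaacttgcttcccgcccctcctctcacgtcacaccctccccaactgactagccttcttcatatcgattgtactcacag

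A further distal region, 33.8 kb upstream of Ermap and also overlapping an exon of AU022252, was at 4.1 in 6 h replicate 2 and at 56.7 in 24 h replicate 1 and in no other library. Around Ermap the promoters of neighbours differed in a way that did not follow time. The promoter of AU022252, 42.8 kb upstream, ranked between 89.8 and 98.5 in all 10 libraries. The promoter of Svbp, 5.36 kb upstream, was listed in all 5 replicate 2 libraries and in no replicate 1 library, a region singled out after its values were seen. The difference between replicate numbers in the Ermap values was not itself tested.

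**Figure D3:**
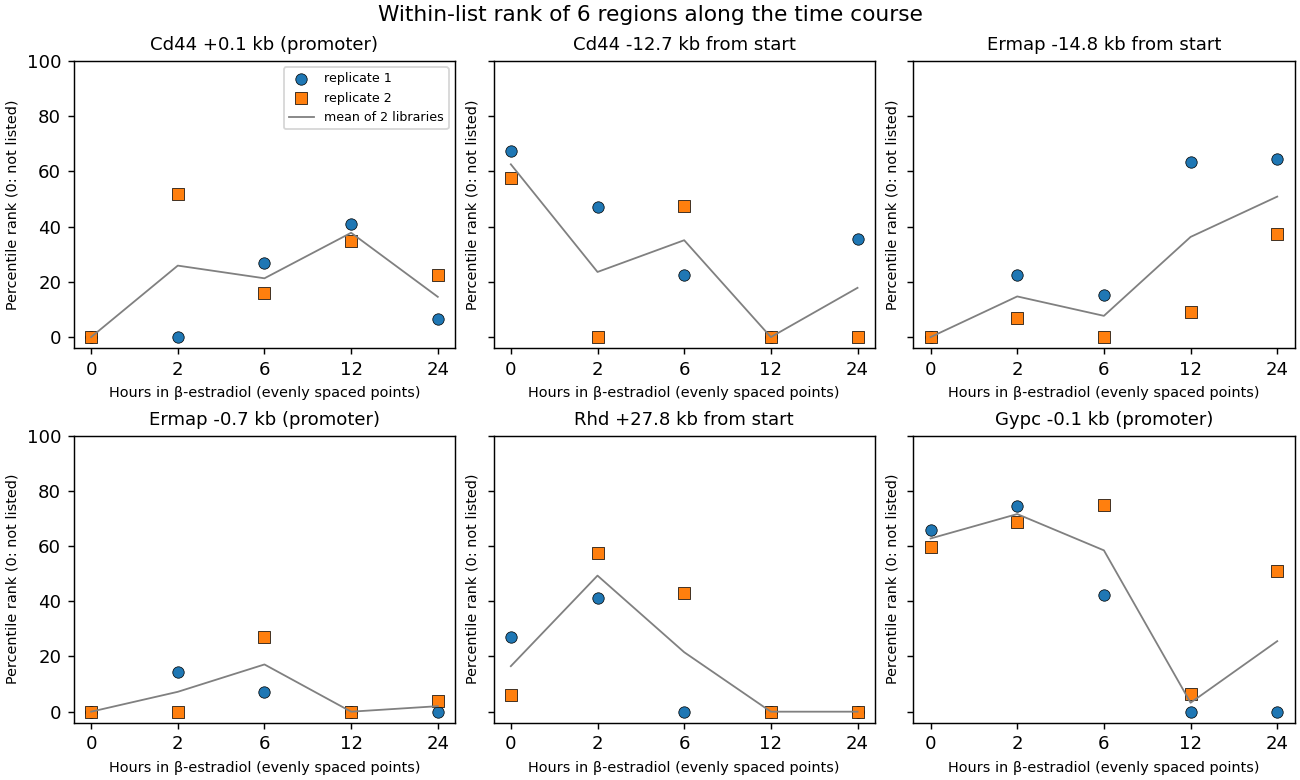
Percentile rank (y axis, 0 where not listed) of 6 regions against hours in β-estradiol (x axis, time points evenly spaced), with the 2 replicates as separate symbols and their mean as a line. The Cd44 promoter was at 0 in both 0 h libraries and above 0 in all libraries from 6 h, while the Rhd region 27.8 kb downstream of the start was at 0 in all 4 libraries of 12 and 24 h.

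Rhd encodes the Rh antigen protein, which in the red cell membrane forms the Rh complex with the glycoprotein encoded by Rhag, an ammonia channel needed for the complex to reach the surface. The Rhd promoter (chr4:134864162-134864805) was listed only in 6 h replicate 2, at percentile 45.7, and in 24 h replicate 1, at 31.1. An intronic region 4.9 kb downstream of the start was listed throughout, with ranks of 66.3 and 44.2 before treatment (0 h), 64.2 and 13.8 after 2 h, 6.06 and 54.9 after 6 h, 18.6 and 46.1 after 12 h, and 71.0 and 28.6 after 24 h. Its replicates lay far apart within a time point, as at 6 h, and the groups overlapped throughout (rho = −0.0246, exact permutation p = 0.971, adjusted p = 1.0). It holds 2 GATA motifs.
Rhd, 4.9 kb downstream (chr4:134869339-134869538, plus strand): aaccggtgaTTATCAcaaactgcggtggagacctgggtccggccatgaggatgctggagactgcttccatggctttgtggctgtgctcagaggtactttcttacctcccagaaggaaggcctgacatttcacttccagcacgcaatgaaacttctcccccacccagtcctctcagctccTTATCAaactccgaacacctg

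A second intronic region of Rhd, 27.8 kb downstream of the start, was listed early and not late. It ranked 27.1 and 5.88 before treatment, 41.2 and 57.4 after 2 h and 43.1 in 6 h replicate 2, and was absent from 6 h replicate 1 and from all 4 libraries of 12 and 24 h. Spearman's rho was −0.683 (exact permutation p = 0.0381, adjusted p = 0.712), with the replicate block −0.487 (exact permutation p = 0.182), and −0.351 in lists of equal length. Pearson's r was −0.586 (exact permutation p = 0.0757), and −0.522 (exact permutation p = 0.189) without the 24 h libraries. The loss was not called in lists of equal length. No GATA motif lies in its central 200 bases.

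Of the weaker Rhd regions, the intronic one 15.1 kb downstream was listed only late, at 11.2 and 5.81 at 12 h and at 26.5 in 24 h replicate 1. An intergenic one 81.7 kb downstream was at 10.5 and 1.4 at 2 h and at 27.2 in 6 h replicate 2, and in no other library. Rhd had the most summits of the 8 genes, 63 of 250, and 5 of its 12 regions lay within 1 kb of a start of the neighbouring genes Maco1, Tmem50a, Rsrp1 and Syf2.

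Rhag itself had a promoter peak in a single library, 12 h replicate 2, at percentile 11.6. The steadier region lay 4.27 kb upstream of its start, overlapping an exon of Crisp2, and was listed in 9 libraries. Its ranks were 49.7 and 64.6 in the 0 h libraries, 64.1 and 55.1 in those of 2 h, 68.7 in 6 h replicate 2 with no peak in 6 h replicate 1, 73.7 and 67.1 in those of 12 h, and 71.6 and 12.1 in those of 24 h. Apart from 6 h replicate 1 and 24 h replicate 2 the ranks lay between 49.7 and 73.7, with overlap between 0 h and every later time point except 12 h (rho = 0.295, exact permutation p = 0.42, adjusted p = 1.0). This rho was 0.0739 in lists of equal length, 0.127 without 24 h replicate 1 and 0.653 without 24 h replicate 2. An intronic region 6.67 kb downstream was in 2 h replicate 1 alone, at 46.3. The upstream region holds a GATA motif within a TAL1-GATA composite.
Rhag, 4.27 kb upstream (chr17:40806759-40806958, plus strand): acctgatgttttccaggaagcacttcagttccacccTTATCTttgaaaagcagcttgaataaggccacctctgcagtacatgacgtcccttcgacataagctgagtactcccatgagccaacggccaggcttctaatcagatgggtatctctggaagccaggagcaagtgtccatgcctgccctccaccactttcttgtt

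Kel encodes the Kell glycoprotein, a zinc endopeptidase of the red cell surface. Its promoter (chr6:41704022-41704666) was listed in 8 libraries, with ranks of 70.6 and 52.6 before treatment, 54.5 in 2 h replicate 2, 70.2 in 6 h replicate 2, 45.3 and 47.3 after 12 h, and 69.4 and 4.38 after 24 h. It was not listed in replicate 1 of 2 h or of 6 h. In those libraries no summit at all was listed within 50 kb of Kel. The values of 2, 6 and 24 h overlapped those of 0 h, while both 12 h libraries lay below both 0 h libraries. Over the whole course there was no trend past the test (rho = −0.235, exact permutation p = 0.516, adjusted p = 1.0). An intronic region 1.24 kb downstream was at 6.65 in 2 h replicate 2, 4.09 in 12 h replicate 1 and 32.5 in 24 h replicate 1.

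An intergenic region 2.18 kb upstream of Kel ranked 11.0 and 23.2 before treatment, was in no library of 2, 6 or 12 h, and was at 5.22 in 24 h replicate 1. It was the only member region lost at 3 of the 4 time points, but its peaks were of low rank, and no loss was called in lists of equal length. It holds 1 GATA motif.
Kel, 2.18 kb upstream (chr6:41706422-41706621, plus strand): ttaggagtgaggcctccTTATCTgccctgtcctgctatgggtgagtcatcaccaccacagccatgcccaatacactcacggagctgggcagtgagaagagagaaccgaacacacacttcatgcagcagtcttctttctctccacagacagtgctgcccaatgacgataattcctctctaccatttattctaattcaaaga

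Icam4 carries the Landsteiner-Wiener blood group antigens and binds integrins on macrophages and other cells. The region at its start (chr9:21029126-21029825) was listed in 8 libraries, with ranks of 83.4 and 20.9 before treatment, 61.8 in 2 h replicate 1, 14.6 and 61.0 after 6 h, 64.6 and 43.2 after 12 h, and 22.3 in 24 h replicate 1. The spread within 0 h covered all later values except 14.6 in 6 h replicate 1 and the absences in replicate 2 of 2 h and 24 h (rho = −0.235, exact permutation p = 0.516, adjusted p = 1.0). Icam4 is short, 1223 bp, and lies between Icam1 and Icam5, so that the region 1.53 kb downstream of its start, listed in 9 libraries, is within 1 kb of the start of Icam5. The 2 distal regions near Icam4 with the highest mean rank were minor, one 4.04 kb downstream in 3 libraries and one 14.5 kb upstream in 1.

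Gypc encodes glycophorin C, which carries the Gerbich antigens and anchors the membrane to the spectrin skeleton through protein 4.1. An intronic region 17.5 kb downstream of its start (chr18:32542147-32542845) had the highest mean rank of the distal regions near the members, 89.9 ± 6.96 (SD, n = 10 libraries). Its ranks were 95.0 and 79.5 before treatment, 92.6 and 95.3 after 2 h, 79.9 and 88.3 after 6 h, 91.6 and 82.7 after 12 h, and 97.2 in each 24 h library. Both 24 h libraries lay above all others, the nearest being 2 h replicate 2, and rho was 0.394 (exact permutation p = 0.272, adjusted p = 1.0). Its central 200 bases hold 3 GATA motifs, 1 of them in a TAL1-GATA composite.

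A second intronic region of Gypc, 7.78 kb downstream, ranked 24.3 and 0.868 before treatment, 56.9 and 42.8 after 2 h, 68.7 and 67.0 after 6 h, 33.7 and 49.1 after 12 h and 78.1 in 24 h replicate 1, with no peak in 24 h replicate 2. The 7 listed later values lay above both 0 h values, and the absence in the shortest list did not (rho = 0.246, exact permutation p = 0.508, adjusted p = 1.0). This rho was 0.11 without either 0 h library, 0.0339 without 24 h replicate 1 and 0.644 without 24 h replicate 2. The part of list length in that absence was not tested.

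The Gypc promoter (chr18:32559794-32560460) ranked lower at 12 and 24 h than at 0 h. It ranked 65.8 and 59.7 before treatment, 74.4 and 68.8 after 2 h, 42.2 and 74.7 after 6 h, 6.48 in 12 h replicate 2 and 51.1 in 24 h replicate 2, and was not listed in replicate 1 of 12 h or 24 h. All 4 libraries of 12 and 24 h lay below both 0 h libraries. Spearman's rho was −0.63 (exact permutation p = 0.0589, adjusted p = 0.805) and, with the replicate block, −0.753 (exact permutation p = 0.0272, adjusted p = 0.613). Pearson's r was −0.637 (exact permutation p = 0.0456), and −0.866 (exact permutation p = 0.0135) without the 24 h libraries.

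Aqp1 is the water channel of the red cell membrane and carries the Colton antigens. No library listed a summit within its 112.124-kb window, nor at its promoter. The nearest summits of any list lay 297.0 kb upstream and 672.0 kb downstream of the gene. An empty window was not rare, as 25.6% of the 21911 protein-coding genes had no summit in theirs in any library, and the median window held 16.0 summits over the 10 lists.

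**Figure D4:**
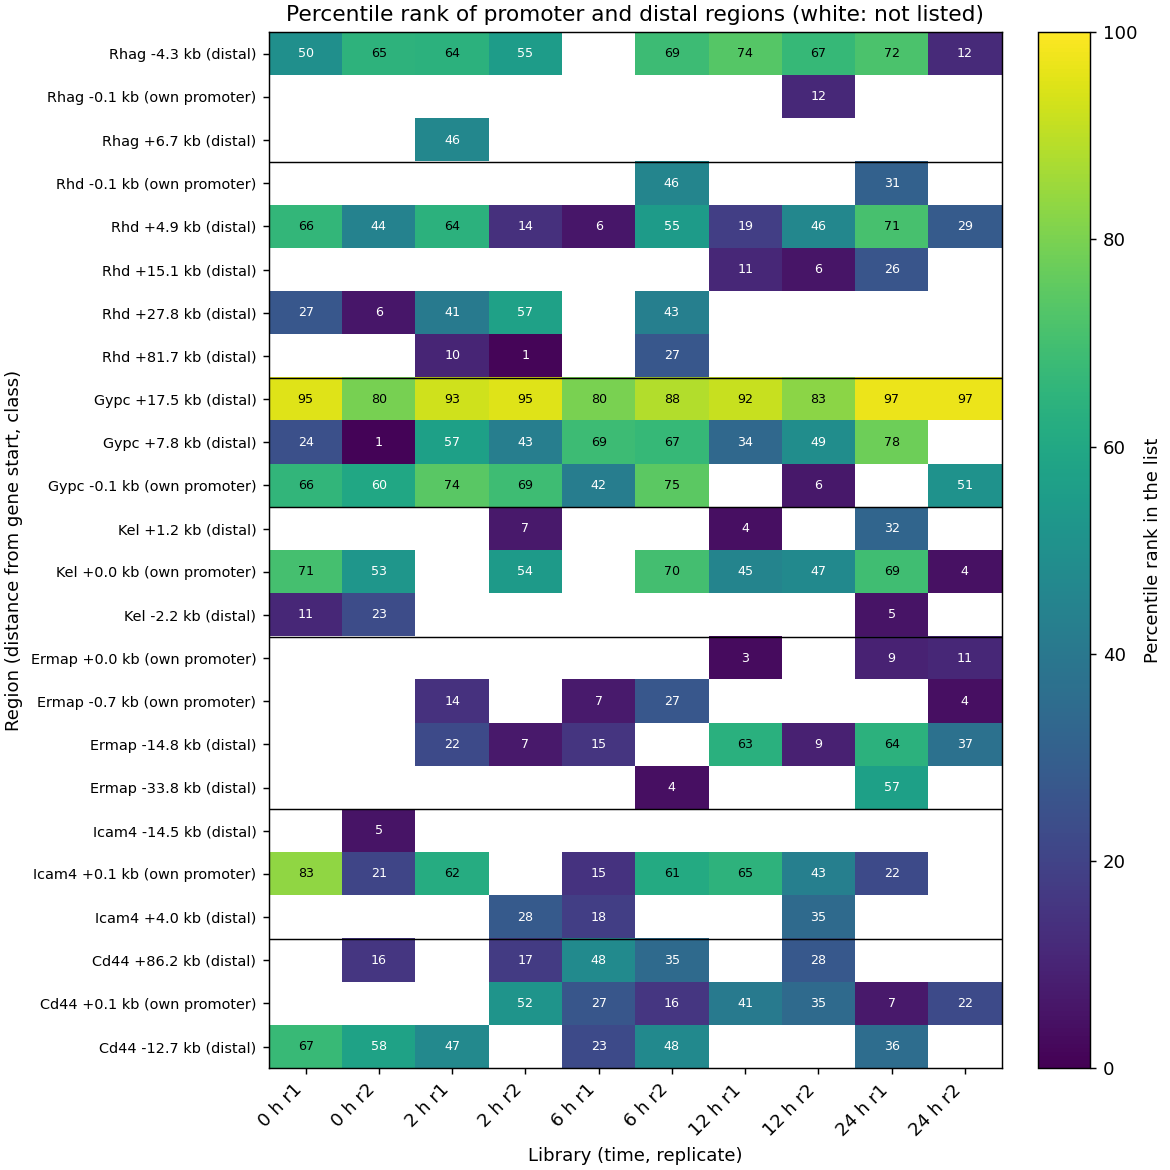
Percentile rank of the promoter regions and the named distal regions of 7 genes (rows) in the 10 libraries (columns), with the rank printed rounded in each cell and white where the region was not listed. The Gypc region 17.5 kb downstream of the start was at 79.5 or above in all libraries, and the Rhag, Rhd and Ermap promoter rows are mostly white.

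The 30 other erythroid surface genes give a frame for these 8. Their promoters were listed in all 10 libraries for 10 genes (such as Bsg, Cd47, Cd55, Epor and Tfrc), in none for 6 (Slc4a1, Sema7a, Slc14a1, Bcam, Fut1 and Abo), and in some libraries for 14. Of the 202 regions near them, 1, 5, 7 and 4 were gained by 2, 6, 12 and 24 h, and 3, 3, 5 and 11 were lost by these times. None of their 106 regions tested passed the trend test after adjustment over all regions, and 5 were below 0.05 before it. The members' largest number lost, 3 of 50, was at 12 h, and that of the other genes, 11 of 202, at 24 h, a difference that was not tested.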

How the data were processed

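ATAC-seq was performed in G1ER cells, and the authors trimmed the reads, aligned them to mm10, kept those with a single genomic position and called peaks with MACS separately in each library. The methods name Bowtie2 and the submitters' processing notes Bowtie 1.0.0, Picard and MACS2, so the aligner behind the lists was not settled, and a shift of reads for the Tn5 cut is not given in the sources used here. Each deposited list gives 1-bp summits and a score, the −log10 of the q-value that the authors' peak caller assigned, with a lowest value of 1.3. Scores of different libraries share no scale and depend on depth, and the lists hold neither read counts nor library totals, so no interval that needs a depth is given.

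Groups and replicate numbers were taken from the sample titles. No lists were identical (0 pairs). Summits on chromosomes 1 to 19, X and Y were extended by 250 bp on each side and merged across libraries, and a library's percentile rank for a region was that of its highest score there. Annotation used GENCODE M21 with 41520 starts of protein-coding genes, and a region within 1000 bp of a start was a promoter region. The members and the other gene lists were chosen with earlier results of these data known. Text names every member, its promoter, each region gained or lost, and the 2 distal regions with the highest mean rank per member. The motif count in promoter windows was added after the data were seen.

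Presence calls have no test. The rank trend was tested by exact permutation over the 113400 distinct arrangements of the hours, and the program was tested on simulated data. Deviations of same-numbered libraries from their group means correlated by 0.149 to 0.326 in all 10 pairs of time points over 6234 regions, so the numbers pair the libraries, and a fit with the replicate number as a block was run. Other alternatives were lists of equal length, a score of at least 2, windows of 100 and 500 bp on each side, flanks of 25 and 100 kb, start distances of 500 bp and 2 kb, and leaving out each library. Python 3.11.15, NumPy 2.4.6, pandas 2.3.3, SciPy 1.17.1 and pysam 0.24.0 were used.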

Additional observations from a re-analysis of the deposited data

Results flagged for a closer look

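At the Rhd region 27.8 kb downstream of the start, the libraries of 2 h and those of 12 and 24 h moved to opposite sides of 0 h. The mean percentile rank was 16.5 before treatment, 49.3 after 2 h and 0.0 after both 12 and 24 h, so that 2 h differed from 12 h by 49.3 points and from 24 h by 49.3 points. Every 2 h library lay above both 0 h libraries and every library of 12 and 24 h below them, and the difference was not tested. The means of 0.0 stand for libraries that did not list the region, and its losses were not called in lists of equal length. How many of all regions show such a pattern was not counted.

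The Gypc promoter was singled out by the same pattern. Its mean percentile rank was 62.8 before treatment, 71.6 after 2 h, 3.24 after 12 h and 25.6 after 24 h, a difference of 68.3 points between 2 h and 12 h and of 46.0 points between 2 h and 24 h, with every library on its side of 0 h. This difference was not tested either, and it too has no share of all regions beside it.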

How the results depend on the processing

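Of 146 alternative values for the counts, 103 stayed within 1.5 times the reported count and 43 did not. Those that stayed include every alternative for the trend counts, which were 0 throughout. Apart from the start distance of 2 kb, all 43 that moved were counts of regions gained or lost, so these are less steady than the pooled figure. Of 146 alternatives for the rank trends of named regions, 10 changed sign. Lists of equal length gave 1 region gained at 6 h and 1 at 24 h, and 0 lost at 2 h and at 6 h. A count that stayed need not hold the same regions. In lists of equal length, 2 regions were again gained at 2 h and 1 was lost at 24 h. None of the regions called at those steps in the full lists was among them. Neither region gained at 6 h in the full lists was called either. A flank of 25 kb gave 1 region gained at 2 h, a flank of 100 kb gave 2 lost at 24 h, and a start distance of 2 kb gave 1 member promoter in all 10 libraries.

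The replicate numbers pair the libraries, and a call from 1 pair alone asks for 1 library per side, so more regions meet it by construction. Under this replicate block, replicate 1 alone gave 6, 6, 7 and 11 regions gained at 2, 6, 12 and 24 h and 5, 7, 8 and 3 lost, and replicate 2 alone gave 8, 13, 6 and 5 gained and 7, 3, 6 and 10 lost. The trend test called no region with or without the block (0 regions). Fewer arrangements are possible within the block, so there too no region could pass alone.

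Leaving out 1 library also eases the rule. Gains ranged from 2 to 6 at 2 h (6 without 2 h replicate 1, 4 without 2 h replicate 2), 3 to 11 at 6 h (11 without 6 h replicate 1, 5 without 6 h replicate 2), 3 to 7 at 12 h (5 without 12 h replicate 1, 7 without 12 h replicate 2) and 3 to 11 at 24 h (11 without 24 h replicate 2). Losses ranged from 2 to 4 at 2 h (2 without either 0 h replicate, 4 without 2 h replicate 1, 3 without 2 h replicate 2), 1 to 5 at 6 h (3 without 0 h replicate 1, 2 without 0 h replicate 2, 5 without 6 h replicate 2), 3 to 6 at 12 h (6 without 0 h replicate 1, 5 without 0 h replicate 2, 6 without 12 h replicate 2) and 1 to 6 at 24 h (5 without 0 h replicate 1, 6 without 24 h replicate 1, 3 without 24 h replicate 2).

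The sign of Spearman's rho changed for Rhd 4.9 kb downstream (from −0.364 to 0.17 over single libraries left out: 0.17 without 0 h replicate 1, 0.0932 without 2 h replicate 1, 0.0678 without 24 h replicate 2), Gypc 17.5 kb downstream (−0.195 without both 24 h libraries), the promoters of Kel (range −0.443 to 0.0255) and Icam4 (−0.392 to 0.00851), in each case highest without 0 h replicate 1, and Cd44 86.2 kb downstream (−0.319 to 0.0575: 0.0177 without 12 h replicate 1, 0.0575 without either 24 h replicate, 0.35 without both). The cause was not tested. None of these trends had passed the test. Without its sign changing, rho also moved by over 1.5 times for Gypc 17.5 kb downstream (0.17 without either 24 h replicate, 0.212 without 0 h replicate 2). Rhd 27.8 kb downstream gave no trend value without a library that listed it, since fewer than 5 then remained. Without read totals, no limit from depth could be set on any absence.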
